A study of Mus musculus with 20 samples.

Results

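The enzymes and transporters that set the local balance of phosphate and pyrophosphate in mineralizing bone were followed here as 10 genes, Alpl, Enpp1, Ank, Phospho1, Smpd3, Slc20a1, Slc20a2, Xpr1, Mgp and Ahsg. They were chosen by name out of 18195 genes on the array, with earlier results of these data known. All 21 probe sets annotated to them were used. Of these, 20, for 9 genes, were called present on enough arrays to be tested. Total RNA of the femoral shaft was measured at 5 weeks of age on 20 Affymetrix arrays, 5 for each of 4 groups of C57BL/6J mice: hemizygous Hyp males (Hyp/Y), their wild-type brothers (normal males), heterozygous Hyp females (Hyp/+) and their wild-type sisters (normal females). Hyp is an inherited deletion at the 3′ end of the X-linked gene Phex, so every tissue of the animal carries it, and in Hyp/+ females cells differ in which X chromosome is active. Each array carried the pooled RNA of 2 mice, 40 mice in all, and each of 5 series held 1 array per group from littermates handled in parallel, so that each Hyp array has a normal partner of its own series and sex, 10 pairs in all. The femoral ends were cut off and marrow was washed out with saline as far as possible. The samples are thus whole shafts with the marrow that remained, and markers of skeletal muscle were also read in them.

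In bone, mineral forms where phosphate is plentiful and pyrophosphate, a potent inhibitor of crystal growth, is scarce. Enpp1 makes pyrophosphate from nucleotide triphosphates outside the cell and Ank exports pyrophosphate or its precursor, while Alpl, the tissue-nonspecific alkaline phosphatase, splits it into phosphate. Phospho1 releases phosphate from phosphocholine inside matrix vesicles, and Smpd3 can supply that phosphocholine from sphingomyelin. Slc20a1 and Slc20a2 import phosphate with sodium, Xpr1 exports it, and Mgp and Ahsg encode proteins that inhibit the growth of mineral, one made locally and the other chiefly by the liver.

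Signals of Phex matched the genotype labels of the arrays, and no check of the sex labels is given. Phex gave 3.8 to 48.2 units of fluorescence in Hyp males and 2391.3 to 4002.5 in normal males, and 356.5 to 847.2 in Hyp females and 3388.3 to 5763.8 in normal females, and the place of its probes relative to the deletion was not looked up. The share of probe sets with a present call ran from 49.3% to 56.9% over the arrays, and the number of arrays limits the precision of each value. Of the osteocyte markers other than Phex itself, 4 of 8 genes tested were lower in Hyp (Dmp1, Sost, Pdpn and Dkk1) and 0 higher, with a median log2 fold change of -0.69. Their summed signal was 34339 to 54232 in Hyp males and 47077 to 61990 in normal males, and 39831 to 50038 in Hyp females and 51315 to 56884 in normal females. Of the osteoblast and bone matrix markers, 1 of 8 was lower (Ifitm5), with a median of -0.16. Of the endothelial markers, 3 of 10 were higher in Hyp and 0 lower, with a median of 0.43 and a summed signal of 13874 to 17977 in Hyp males, 9874 to 12894 in normal males, 12509 to 16908 in Hyp females and 9522 to 13509 in normal females. Erythroid markers had 0 calls but a median of 0.45 with 5 of 5 positive, and a summed signal of 24080 to 45857 in Hyp males, 10198 to 27422 in normal males, 13426 to 19174 in Hyp females and 11249 to 18270 in normal females. Osteoclast markers (8 of 10 negative) and vascular smooth muscle markers (5 of 8 positive) also had 0 calls, with medians of -0.26 and 0.24. Cartilage, skeletal muscle, tendon, adipocyte and white blood cell lists had 0 calls, with medians between -0.22 and 0.08. All 10 skeletal muscle genes were called present on all 20 arrays, so the samples also held muscle RNA. The summed signal of these muscle genes was 313369 to 439082 in Hyp males and 258312 to 530335 in normal males. In females it was 351014 to 552237 in Hyp and 280822 to 425744 in normal. The osteocyte count of 4 was 2 without series 2, 1 without series 4, 2 without series 5 and 0 with the actin 3′/5′ signal ratio as a covariate. The endothelial count of 3 ran from 0 to 4 over 25 repeats that each left out 1 series or 1 array, with 0 without series 2, 4 or 5, and was 2 without the block for series, 0 without the filter on present calls and 0 with that covariate. In a whole shaft, fewer cells of a type and less RNA per cell cannot be told apart, and the part of these shifts in the results below was not tested.

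Enzymes on both sides of this balance were lower in Hyp shafts. Over both sexes Enpp1, Ank, Phospho1 and all 3 probe sets of Smpd3 were lower, together with 1 of 2 probe sets of Slc20a2 and 1 of 7 of Xpr1. In all, 8 of the 20 member probe sets, from 6 genes, were lower and 0 were higher at an adjusted p of 0.05 in a limma fit over all probe sets, against 1.3% of all 27141 tested probe sets called lower, 1.08% called higher and 2.38% called either way. Because the members were chosen with earlier results of these data known, this comparison is a description. The brightest probe set of Alpl, of Slc20a1, of Slc20a2, of Xpr1 and of Mgp passed in neither direction. The member probe sets had a median log2 fold change of -0.24, and 15 of 20 were negative, beside a median of 0.01 over all probe sets tested. The count of 8 was 4 without the block for series, 1 without series 2, 1 without series 4, 2 without series 5 and 5 without the normal male array of series 4. Among all tested probe sets, the 354 called lower became 197, 17, 12, 38 and 122 in the same order. The actin 3′/5′ signal ratio, a measure of RNA integrity, was higher in Hyp by 0.14 ± 0.087 on the log2 scale (SD, n = 10 pairs) in 9 of 10 pairs (exact 2-sided sign-flip p = 0.00391). With that ratio as a covariate 0 member probe sets passed, as did 1 probe set in all, while the median SE over all probe sets was 0.20 in place of 0.11, and the fold changes of the 8 ran from -0.99 to -0.35.

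**Figure D1:**
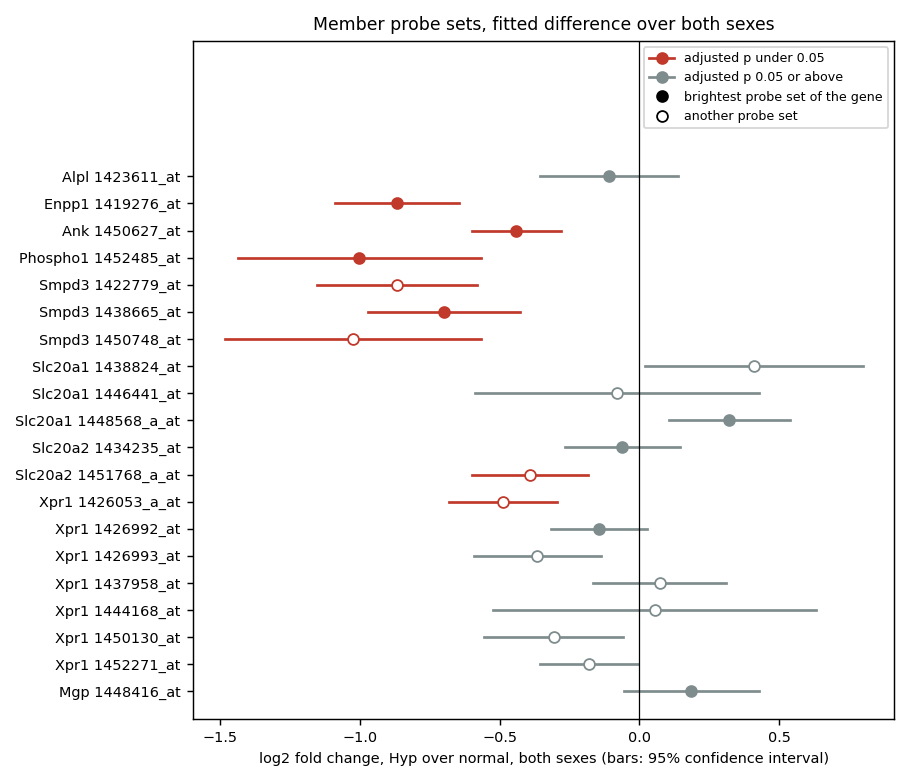
Fitted log2 fold change of Hyp over normal for the 20 tested probe sets over both sexes, each with its 95% confidence interval (x axis, log2 of signal plus 16). Filled points mark the brightest probe set of a gene and red marks an adjusted p under 0.05. The 8 red points lie between -1.02 and -0.39, and the brightest probe sets of Xpr1 and Slc20a2 are grey while a dimmer one of each is red.

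The promoters of the genes with a probe set lower in Hyp are shown where RefSeq's table (build GRCm38.p6) holds one, because these genes moved in the same direction. Each window of 300 bases runs 5′ to 3′ from 250 bases before the annotated start to 50 after, and capitals mark the letters GGGCGG (the GC box), TATAAA (the TATA box), TGTGGT (the core bound by RUNX factors) and TGACGTCA (the cyclic AMP response element), searched on both strands. The windows are chr10:24712110-24712409, minus strand, for Enpp1, chr15:27466427-27466726, plus strand, for Ank, chr11:95824250-95824549, plus strand, for Phospho1 and chr1:155417395-155417694, minus strand, for Xpr1. Smpd3 and Slc20a2 are named only.
Enpp1: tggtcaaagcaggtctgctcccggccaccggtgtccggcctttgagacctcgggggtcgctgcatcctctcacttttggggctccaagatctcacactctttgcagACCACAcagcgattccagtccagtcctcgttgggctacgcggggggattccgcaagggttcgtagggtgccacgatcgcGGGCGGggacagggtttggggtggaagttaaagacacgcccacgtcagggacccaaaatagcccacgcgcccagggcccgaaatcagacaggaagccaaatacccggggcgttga
Ank: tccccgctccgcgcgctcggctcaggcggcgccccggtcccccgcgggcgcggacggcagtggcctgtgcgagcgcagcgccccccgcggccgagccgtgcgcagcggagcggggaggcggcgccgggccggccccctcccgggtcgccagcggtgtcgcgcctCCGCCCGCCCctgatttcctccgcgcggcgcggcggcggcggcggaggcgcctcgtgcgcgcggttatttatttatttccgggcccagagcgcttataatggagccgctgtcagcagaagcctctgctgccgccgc
Phospho1: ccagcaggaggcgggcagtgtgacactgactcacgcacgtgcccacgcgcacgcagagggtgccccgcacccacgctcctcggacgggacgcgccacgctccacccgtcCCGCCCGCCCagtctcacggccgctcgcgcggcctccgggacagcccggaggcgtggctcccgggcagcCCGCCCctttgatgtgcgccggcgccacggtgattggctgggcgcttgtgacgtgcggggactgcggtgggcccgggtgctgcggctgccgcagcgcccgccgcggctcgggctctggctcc
Xpr1: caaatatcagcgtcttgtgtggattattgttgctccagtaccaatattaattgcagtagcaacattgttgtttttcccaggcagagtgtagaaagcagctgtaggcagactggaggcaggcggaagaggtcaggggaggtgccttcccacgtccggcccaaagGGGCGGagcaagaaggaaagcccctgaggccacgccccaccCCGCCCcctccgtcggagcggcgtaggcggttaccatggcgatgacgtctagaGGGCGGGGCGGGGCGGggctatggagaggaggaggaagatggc
GC box letters stood in each of the 4 windows, 1 time in Enpp1, 2 in Ank, 3 in Phospho1 and 5 in Xpr1, with some overlapping one another, and in 35.7% of 32851 windows of this length. The RUNX core letters stood in the Enpp1 window alone of the 4 and in 16.8% of all windows. Members not called lower held these letters too. The first Alpl window had the GC box 3 times, and the first Slc20a1 window had it 2 times with 1 RUNX core. The second Slc20a1 window had 1 GC box, while the second Alpl window and the Ahsg window had none. TATAAA, held by 13.6% of all windows, and TGACGTCA, held by 1.79%, stood in none of these 4. These matches describe letters in the windows, and the arrays do not measure binding or promoter use.

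Enpp1, the ectoenzyme that generates extracellular pyrophosphate, was the member most clearly lower in Hyp. In series 1 to 5 its signal was 353.5, 332, 537.4, 519.6 and 555.8 in Hyp males, against 701.1, 1081.4, 711.1, 819.1 and 1000.3 in normal males. In females it was 437.8, 431.9, 535.7, 489.7 and 570.1 in Hyp and 737.7, 745.3, 928.2, 1200.8 and 902.6 in normal. Every Hyp array lay below every normal array, in each sex and over both. Over both sexes 0.0663% of all tested probe sets were separated this way and 0.0258% the opposite way, and 1 of 20 member probe sets was. Within males 3 member probe sets, from 3 genes, lay wholly below normal and 0 wholly above, where 0.951% and 1.58% of all probe sets did, and within females 4, from 3 genes, and 0, where 1.14% and 0.689% did. Its fitted log2 fold change was -0.87 ± 0.105 (SE), a fold of 0.548 with a 95% interval of 0.470 to 0.640 (limma adjusted p = 0.00144), lower in 10 of 10 pairs. By p it stood at place 9 of the 27141 probe sets. The call held in all 25 repeats that left out 1 series or 1 array. It is the one member that passed within males, at -0.90 ± 0.15 (limma adjusted p = 0.0459), although 20 of the 25 repeats ended that call. In females it stood at -0.84 ± 0.15 (limma adjusted p = 0.114). The authors' deposited table gives Enpp1 a Hyp/normal ratio of 0.540 and an F statistic of genotype of 47.6. This probe set carries no symbol in the array's gene table and was named from the description in the authors' deposited table.

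Ank, the membrane protein through which cells release pyrophosphate, was lower by a smaller step with little spread. Its signal in series 1 to 5 was 3524.2, 2864.4, 2529.5, 2727.4 and 3133.3 in Hyp males, against 4111.7, 5092.2, 4274.5, 3433.3 and 3754 in normal males. In females it was 3500.1, 3729, 2872.3, 3182.1 and 2872.1 in Hyp, against 4734.2, 4338.8, 3892.3, 4341.2 and 3989.2 in normal. The female groups did not overlap, while in males the highest Hyp array, of series 1, lay above the lowest normal array, of series 4. The log2 fold change was -0.44 ± 0.07 (SE), or 0.737-fold (95% interval 0.660 to 0.823, limma adjusted p = 0.0101), with 10 of 10 pairs lower. Among all tested probe sets 1.04% were lower in 10 of 10 pairs, and among the 20 member probe sets those of Enpp1, Ank and 1 of Smpd3 were. The adjusted p was 0.0720 without series 2 and 0.0817 without series 4. The ratio in the authors' deposited table is 0.737, with an F statistic of genotype of 44.8.

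Alpl, the phosphatase that removes pyrophosphate, was not shifted beyond its spread. Hyp males gave 7307.9, 6487.1, 9023.3, 8125.5 and 9097.3 in series 1 to 5, and normal males 8887.3, 9561.7, 5114.1, 8293.9 and 9916.3. Hyp females gave 9079.8, 7571.9, 7787.1, 7722.7 and 9091.4, and normal females 8915.2, 11031.7, 7768, 7050.8 and 13110.2. The groups overlapped in both sexes, with the widest range in normal females and the lowest value of all in the normal male array of series 3. The log2 fold change was -0.11 ± 0.12 (SE; limma adjusted p = 0.646), and its 95% interval, from 0.782 to 1.10-fold, holds both a moderate decrease and a small increase. Pairs were split, with 6 lower and 4 higher in Hyp. The value was -0.34 in series 1 and 2 and 0.05 in series 3 to 5.

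**Figure D2:**
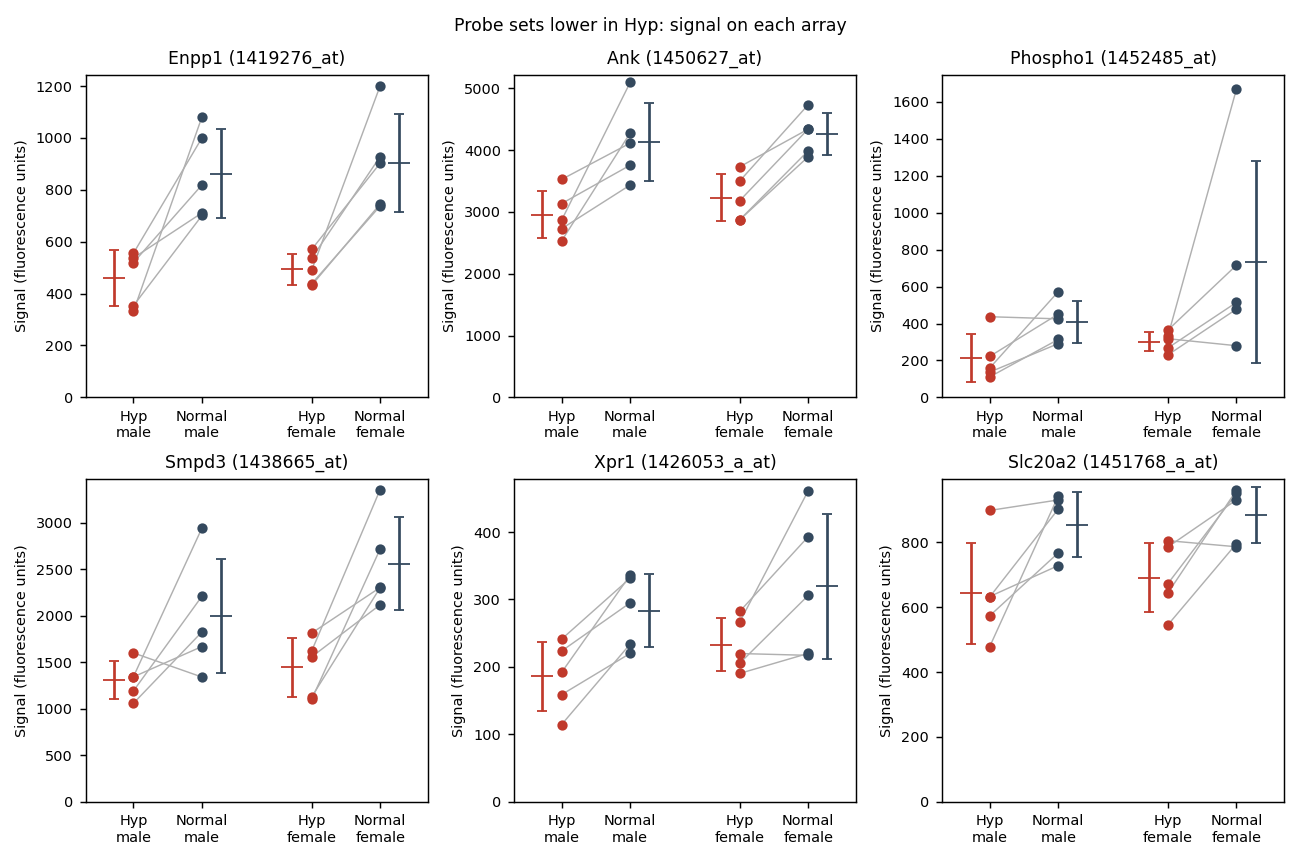
Signal on each array (y axis, fluorescence units) for a called probe set of each of the 6 genes lower in Hyp, with Hyp in red left of normal in dark blue in males and in females. Grey lines join arrays of one series, and bars give the mean and SD of 5 arrays. Enpp1 shows no overlap between Hyp and normal, and the Phospho1 panel shows the normal female array of series 5 at 1668.8, far above the other arrays.

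Among pyrophosphate suppliers and nucleotide-splitting enzymes beyond these members, 2 of 14 tested genes were lower in Hyp and 0 higher, with a median of -0.10 and 11 of 14 negative. Enpp5, a relative of Enpp1, was lower at -0.31 ± 0.06 (SE; limma adjusted p = 0.0225) in 10 of 10 pairs, with 570.3 ± 60.0 in Hyp males and 714.5 ± 49.7 in normal males, and 620.2 ± 35.3 in Hyp females and 767.3 ± 47.5 in normal females (SD, n = 5 each). Its call was kept in 20 of 25 repeats, and lost without series 1, 2, 4 or 5 (adjusted p up to 0.139) and without the normal male array of series 4 (0.0527). Ppa1, the cytosolic pyrophosphatase, was lower at -0.29 ± 0.07 (limma adjusted p = 0.0475) in 10 of 10 pairs, but stayed past the threshold in 1 of 25 repeats and gave 0.0763 without the series block. Abcc6, a transporter through which the liver releases nucleotides that become pyrophosphate, was called present on 0 of 20 arrays. Panx3, a channel for nucleotide release in bone cells, stood at 0.33 ± 0.15 (limma adjusted p = 0.239).

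Phospho1, the phosphocholine phosphatase of matrix vesicles, was lower in Hyp with wide spread. Its signal in series 1 to 5 was 436.8, 159.2, 137, 110.9 and 222 in Hyp males, with no present call in series 3 and 4, against 425.2, 572.7, 291.1, 314 and 451.1 in normal males. In Hyp females it was 364.5, 267.6, 317.7, 230 and 332, against 715.8, 514.2, 279.8, 477.8 and 1668.8 in normal females. The groups overlapped in both sexes, through the Hyp male array of series 1 and the normal female array of series 3. The log2 fold change was -1.0 ± 0.20 (SE), a fold of 0.499 with a 95% interval of 0.370 to 0.675 (limma adjusted p = 0.0228), and 8 of 10 pairs were lower. Without the normal female array of series 5 it was -0.85 (limma adjusted p = 0.0257). The call was lost without series 2, 4 or 5, without the normal male array of series 4 (limma adjusted p = 0.0507), without the series block (0.0659) and without the filter on present calls (0.0656). The array's gene table gives this probe set the symbols Zfp652 and Phospho1, and the authors' deposited description names Phospho1 alone. The probe sets that carry Zfp652 by itself stood at -0.16 ± 0.11 and -0.19 ± 0.11 (limma adjusted p = 0.470 and 0.355).

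Smpd3, the neutral sphingomyelinase whose loss in mice gives undermineralized bone, was lower in Hyp on each of its 3 probe sets. The brightest, 1438665_at, gave 1343.2, 1059, 1600.6, 1192.3 and 1345.8 in Hyp males and 1669.7, 1827.4, 1340.9, 2211.6 and 2945.6 in normal males. It gave 1558, 1100.2, 1814.1, 1127.5 and 1620.6 in Hyp females and 2119.3, 2720, 2305.1, 2302.6 and 3359.1 in normal females. Female groups did not overlap, whereas in males series 3 ran the other way, the one pair of 10 that did. Its log2 fold change was -0.70 ± 0.13 (SE; limma adjusted p = 0.0140). Probe set 1422779_at ranged from 577.3 to 724.7 in Hyp males and from 852.5 to 1688.7 in normal males, and from 681.7 to 999 in Hyp females and from 1208.2 to 2091.4 in normal females. With no overlap in either sex and 10 of 10 pairs lower, it stood at -0.87 ± 0.13 (limma adjusted p = 0.0083). The dimmest, 1450748_at, was called present on 13 of 20 arrays and gave -1.02 ± 0.22 (limma adjusted p = 0.0247), with an adjusted p of 0.127 without the series block and 0.0701 without the filter on present calls. The brighter pair kept the call in 22 of 25 repeats each and lost it without series 2, 4 or 5, while 1450748_at kept it in 19. The fall on all 3 probe sets lay between 0.492-fold and 0.616-fold, with overlapping 95% intervals.

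**Figure D3:**
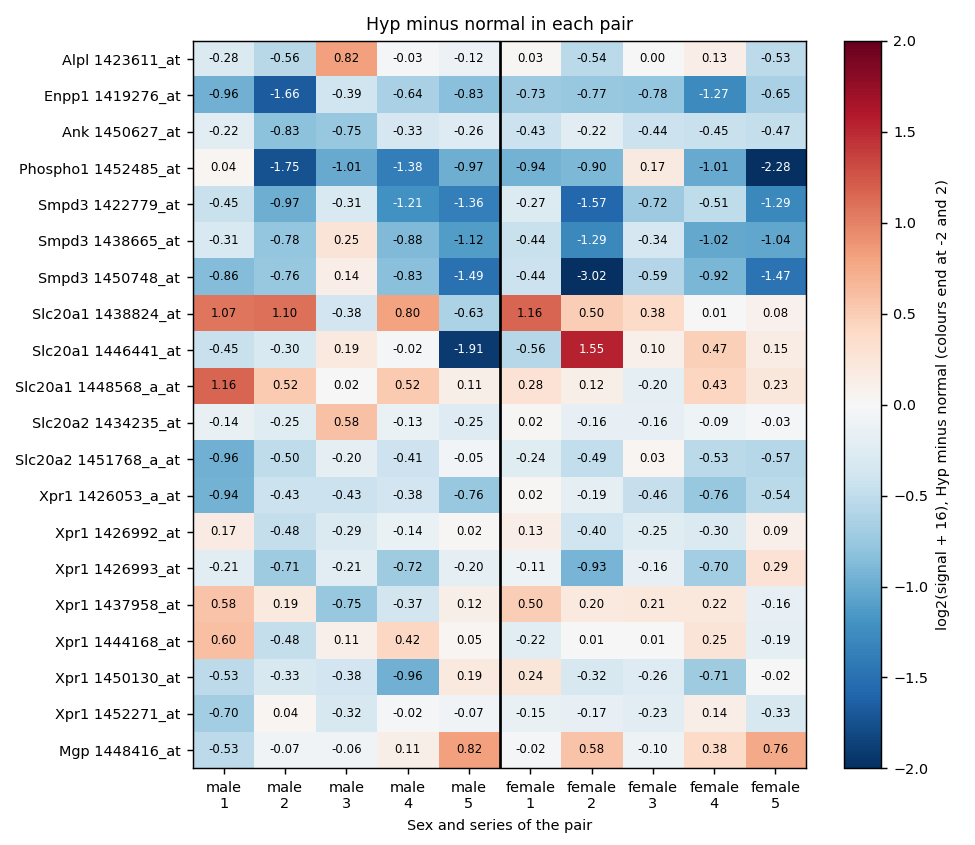
Difference in log2(signal + 16), Hyp minus normal, in each of the 10 same-series pairs (columns, males left and females right) for the 20 tested probe sets (rows), with blue for lower and red for higher in Hyp. Enpp1 and Ank are blue in each pair, 2 of the 3 Smpd3 rows turn red in the male pair of series 3, and the brightest Slc20a1 probe set is red in each male pair.

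In sphingomyelin and phosphocholine metabolism outside these members, 1 of 18 tested genes was lower and 1 higher, with a median of -0.06. Sgms2, which makes sphingomyelin at the cell surface and in the Golgi, was lower at -0.73 ± 0.12 (SE; limma adjusted p = 0.00844) in 10 of 10 pairs. Its signal was 5694 ± 1085 in Hyp males and 9857 ± 3124 in normal males, and 6686 ± 1641 in Hyp females and 10804 ± 2627 in normal females (SD, n = 5 each). Its call was kept in 22 of 25 repeats and lost without series 2, 4 or 5 (adjusted p up to 0.0817). A second Sgms2 probe set stood at -0.99 ± 0.18 (limma adjusted p = 0.0152) and was lower in 8 of 10 pairs. Etnk1, an ethanolamine kinase, was higher at 0.29 ± 0.07 (limma adjusted p = 0.0421) in 10 of 10 pairs on its brightest probe set, a call kept in 5 of 25 repeats. Its other 4 probe sets stood between -0.01 and 0.23 and did not pass. Of all tested probe sets, 1.31% were higher in 10 of 10 pairs. Smpd1, the lysosomal sphingomyelinase, stood at -0.30 ± 0.08 (limma adjusted p = 0.0555).

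Among the phosphate carriers, 1 probe set of Slc20a2 and 1 of Xpr1 were lower and none of Slc20a1 passed. Slc20a1 (PiT-1), a sodium-dependent phosphate importer, had a positive fold change that did not pass. Its brightest probe set, 1448568_a_at, gave 3555.5, 2998.7, 2850, 2591.2 and 2433.3 in Hyp males and 1576.8, 2080.8, 2819.5, 1801.3 and 2248.2 in normal males. In females the values were 2266.6, 2309.1, 1943.9, 2127.6 and 1794.4 in Hyp and 1860.5, 2118.8, 2237, 1576.2 and 1523.7 in normal. Hyp was above normal in 9 of 10 pairs, by 0.32 ± 0.10 on the log2 scale (SE; 1.25-fold, 95% interval 1.07 to 1.45, limma adjusted p = 0.0966), and both sexes overlapped. It stood at 0.52 in series 1 and 2 and at 0.19 in series 3 to 5. Without the normal male array of series 3 the adjusted p was 0.0464. The authors' deposited table gives this probe set a Hyp/normal ratio of 1.25 and an F statistic of genotype of 9.87 (their analysis of variance, p class under 0.01). A dimmer probe set, 1438824_at, stood at 0.41 ± 0.18 (limma adjusted p = 0.224), with 0.96 in series 1 and 2 and 0.04 in series 3 to 5. The third, 1446441_at, was called present on 9 of 20 arrays and stood at -0.08 ± 0.24 (limma adjusted p = 0.892).

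Slc20a2 (PiT-2), the second importer of this family, passed on its dimmer probe set and not on its brightest. The brightest, 1434235_at, ranged from 2176.2 to 2943.4 in Hyp males and 1959.8 to 2906.2 in normal males, and from 2037.6 to 2906.2 in Hyp females and 2163.2 to 3258.6 in normal females. It did not pass, at -0.06 ± 0.10 (SE; 95% interval 0.832 to 1.10-fold, limma adjusted p = 0.773). Probe set 1451768_a_at gave 478.6, 631.9, 633.1, 573.7 and 898.7 in Hyp males, against 943.4, 902.9, 728.5, 767.8 and 931.1 in normal males. In females it gave 786, 673, 805.4, 545.6 and 644.1 in Hyp, against 931.2, 951.2, 786.6, 796.1 and 960.8 in normal. Each sex overlapped, through the Hyp male array of series 5 and the Hyp female array of series 3. Its log2 fold change was -0.39 ± 0.10 (limma adjusted p = 0.0485), lower in 9 of 10 pairs. This call is the least stable of the 8, kept in 4 of 25 repeats and lost at an adjusted p of 0.0717 without the series block, 0.121 without the filter on present calls and 0.0519 with a pseudocount of 1. The interval of one probe set, 0.660 to 0.881-fold, meets that of the other, and the difference between them was not tested.

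Xpr1, the phosphate exporter of mammalian cells, had 7 tested probe sets, of which 1 was lower. On 1426053_a_at the signal was 114.4, 158.8, 241.1, 223.5 and 191.8 in Hyp males, with no present call in series 1, against 233.8, 220, 331.5, 295 and 336.1 in normal males. In females it was 219.8, 190.3, 282.3, 266.5 and 205.5 in Hyp, against 217.1, 220, 393.3, 461.6 and 306.1 in normal. The groups overlapped in each sex, and 9 of 10 pairs were lower. The log2 fold change was -0.49 ± 0.09 (SE; 0.713-fold, limma adjusted p = 0.0148), lost without series 2, 4 or 5 and, at an adjusted p of 0.117, without the series block. The brightest probe set, 1426992_at, stood at -0.14 ± 0.08 (95% interval 0.803 to 1.02-fold, limma adjusted p = 0.337). Of the other 5, 1426993_at stood at -0.37 ± 0.11 (limma adjusted p = 0.0750) with no overlap in males, 1450130_at at -0.31, 1452271_at at -0.18, 1437958_at at 0.07 and 1444168_at at 0.05. The least certain, 1444168_at, was called present on 10 of 20 arrays and ran from 17.2 to 295.4 in Hyp and from 8.2 to 340.3 in normal, with an SE of 0.27. In the authors' deposited analysis of variance, the p class of genotype was under 0.001 for 1426053_a_at and under 0.01 for 1426993_at. It was under 0.05 for 1426992_at, 1450130_at and 1452271_at, and not significant for 1437958_at and 1444168_at. Which transcripts or exons these probe sets read is not analysed here.

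Of the other phosphate carriers and of the inositol pyrophosphate kinases, whose products regulate Xpr1, 0 of 10 tested genes passed over both sexes, with a median of -0.04. By limma 5495 of all 27141 probe sets had an unadjusted p under 0.05. Slc37a3 and Slc37a2, members of a family of sugar-phosphate carriers, had the smallest p of this list, at -0.28 ± 0.09 and -0.33 ± 0.13 (SE; limma adjusted p = 0.0998 and 0.178). The kidney and gut phosphate importers Slc34a1 and Slc34a3 were called present on 0 of 20 arrays and Slc34a2 on 4, so they were not tested.

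**Figure D4:**
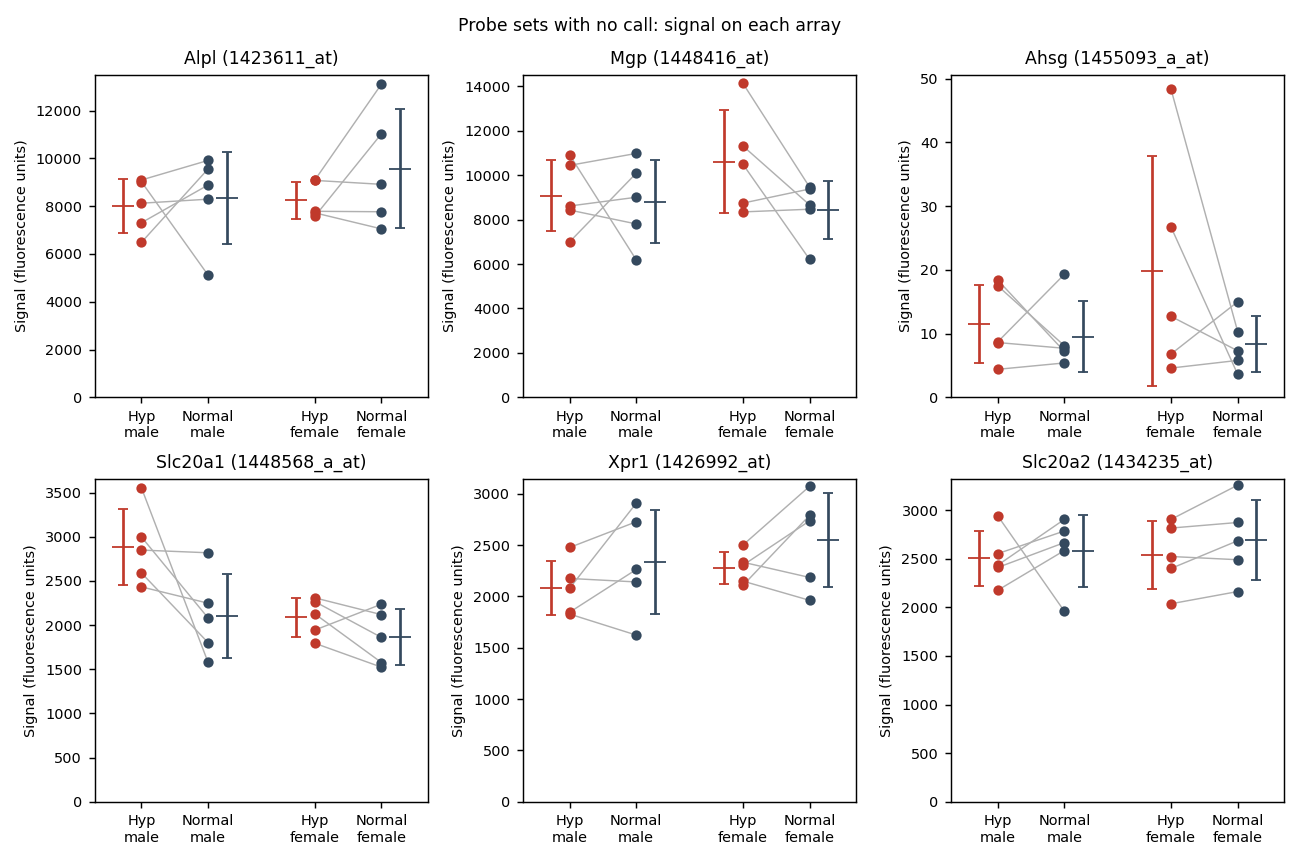
Signal on each array (y axis, fluorescence units) for probe sets that did not pass or were not tested, drawn with Hyp in red left of normal in dark blue, grey lines joining arrays of one series and bars for the mean and SD of 5 arrays. Alpl, Mgp, Xpr1 and Slc20a2 overlap throughout, Slc20a1 lies higher in 5 of 5 male pairs, and Ahsg stays under 50 on each array with no present call.

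Neither mineral inhibitor was called. Mgp, matrix Gla protein, gave 6995.6, 10438.4, 8610.4, 8428.8 and 10913 in Hyp males and 10086.9, 10976.9, 9004.2, 7803.9 and 6187.7 in normal males. In females it gave 8345.2, 14128.8, 8740.8, 11312.2 and 10489.9 in Hyp and 8465.6, 9461, 9375.4, 8659.5 and 6207.2 in normal. Both sexes overlapped, 5 of 10 pairs were higher, and the log2 fold change was 0.19 ± 0.11 (SE; 95% interval 0.961 to 1.35-fold, limma adjusted p = 0.379). Ahsg, which encodes the serum protein fetuin-A, was called present on 0 of 20 arrays, with signals of 4.4 to 48.3 in Hyp and 3.6 to 19.3 in normal, so no fold is given. Of the 8 liver markers with a probe set, 0 were present on more than 2 arrays and 4 were present on none.

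Around these inhibitors, 1 of 10 tested genes of the list of inhibitors, vitamin K enzymes and vesicle proteins was lower and 0 were higher, with a median of -0.08. Ggcx, the carboxylase that activates Mgp, was lower at -0.53 ± 0.12 (SE; limma adjusted p = 0.0350) in 9 of 10 pairs, and its second probe set stood at -0.66 ± 0.15 (limma adjusted p = 0.0322). The signal of the first was 458.5 ± 95.8 in Hyp males and 702.9 ± 207 in normal males, and 511 ± 113 in Hyp females and 719 ± 110 in normal females (SD, n = 5 each). Its call was kept in 7 of 25 repeats and lost without the series block (limma adjusted p = 0.0740). Vkorc1, which recycles vitamin K for that carboxylase, stood at -0.46 ± 0.12 (limma adjusted p = 0.0509, and 0.0450 without the series block). Fam20c, the kinase that phosphorylates secreted mineral-binding proteins, stood at -0.35 ± 0.15 (limma adjusted p = 0.195).

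**Figure D5:**
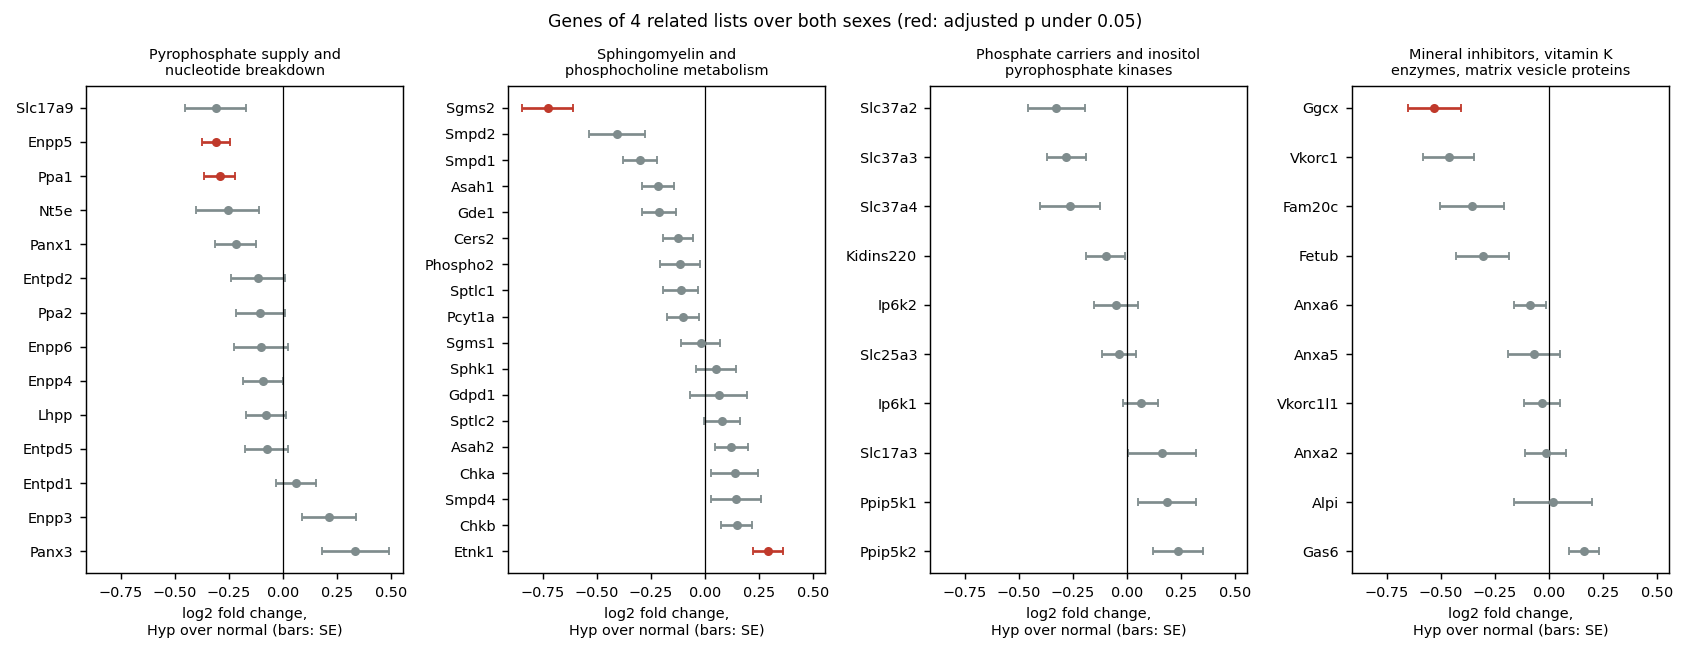
Log2 fold change of Hyp over normal over both sexes (x axis, bars for the SE) for the tested genes of the 4 related lists, 1 probe set a gene, with red for an adjusted p under 0.05. Red points stand for Enpp5, Ppa1, Sgms2 and Ggcx, lower in Hyp, and for Etnk1, higher in Hyp.

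The genotype difference was not shown to depend on sex for any member. In the test of the interaction 0 of 20 member probe sets passed, against 0.00368% of all probe sets, and the lowest adjusted p among members was 0.771 (limma; 0 of 20 had an unadjusted p under 0.05). Within females 0 member probe sets passed (limma; 9 had an unadjusted p under 0.05), where 0.00368% of all probe sets were called. In males 1 passed and 11 had an unadjusted p under 0.05, where 0.0442% of all probe sets were called lower and 0.0553% higher. For females against males over both genotypes 0 of 20 members passed (limma; 6 had an unadjusted p under 0.05, and 0.133% of all probe sets were called). Over all 27141 probe sets, an unadjusted limma p under 0.05 was held by 4866 within males and 2750 within females. It was held by 1798 for the interaction and by 3783 for females against males. For females against males Phospho1 stood at 0.60 ± 0.20 (limma adjusted p = 0.216), with a mean of 302.4 ± 53.4 in Hyp females and 213 ± 132 in Hyp males. In normal females its mean was 731.3 ± 546.4, with the array of series 5 at 1668.8, and in normal males 410.8 ± 113.7. Slc20a1 (1448568_a_at) stood at -0.31 ± 0.10 (limma adjusted p = 0.206), with 2088.3 ± 217.6 in Hyp females and 2885.7 ± 434.2 in Hyp males. In normal females it gave 1863.2 ± 317.3 and in normal males 2105.3 ± 475.1 (SD, n = 5 each).

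The members also differed in how steady they were among arrays of one group. The coefficient of variation of Ank was 7.84% to 15.2% over the 4 groups, that of Enpp1 12.2% to 23.4% and that of Phospho1 17.7% to 74.7%. The value of 74.7% is that of normal females, whose array of series 5 gave 1668.8. Mean signals over the 20 arrays were 3645 for Ank, 680 for Enpp1 and 414 for Phospho1. The part of signal level in this spread was not tested. Between the brightest probe sets of the 9 tested genes, Pearson correlations over the 20 arrays ran from -0.63 to 0.78 in 36 gene pairs, 21 of them positive. Since arrays share genotype and series, they were also taken after removing group and series means, where 19 of 36 were positive. Alpl then ran with Slc20a2 (r = 0.74) and Smpd3 (0.70), and Smpd3 ran against Mgp (-0.72), while Enpp1 and Smpd3, at 0.78 over all arrays, stood at 0.29. These are descriptions over 20 arrays with no test.

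Of all tested genes, the signals most like that of Enpp1 over the 20 arrays were those of Txndc15 (r = 0.93), Timp1 (0.90) and Ssr4 (0.88), each lower in Hyp, at -0.40, -0.64 and -0.43. Smpd3 was most like Ifitm5 (r = 0.97), Kazald1 (0.95) and Cgref1 (0.95), which were lower at -0.87, -0.61 and -0.81 and kept correlations of 0.89, 0.92 and 0.88 once group and series means were removed. Alpl was most like Bmp1 (0.90), Sdc3 (0.88) and Nrbp2 (0.88), none of which passed. Phospho1 was nearest to Impdh1 (0.91), Lbh (0.85) and Myo1d (0.84), and Ank to Tmem60 (0.84), Cdc37 (0.81) and Timm8b (0.80). Slc20a1 was nearest to Piga (0.95), Ift140 (0.95) and Urod (0.94), with fold changes of 0.47, 0.57 and 0.32 that did not pass. Slc20a2 was nearest to Dcn (0.79), Nrbp2 (0.79) and Col5a2 (0.75), Xpr1 to Zfp516, Magee1 and Fibin (0.76 each), and Mgp to Apod (0.83), Wnk1 (0.83) and Nfib (0.80). Neighbours of a member that is lower in Hyp were chosen over the same arrays, so their own fold changes are no separate result. Within groups and series the correlations of Ssr4 with Enpp1, and of Cdc37 and Timm8b with Ank, were 0.47, 0.35 and 0.36. Those of Zfp516, Magee1 and Fibin with Xpr1 were 0.52, 0.36 and 0.13.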

How the data were processed

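Femoral shaft RNA of 20 samples was hybridised to 1-colour Affymetrix arrays, from 8 µg of purified RNA each, per the labels' protocols. The authors' deposited signal is a linear intensity per probe set, made with GCOS, per the submitters' processing notes, and scaled so that the mean trimmed by 2% at each end is 500 on every array, as computed here. The authors also deposited detection calls, a Hyp/normal ratio and, as a score per term, F statistics of an analysis of variance, per the file headers. Signals in both deposited tables were identical for 45101 probe sets.

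Names come from the array's gene table and the authors' deposited descriptions: 19 of the 21 member probe sets carry 1 symbol in the table. The log2 of signal plus a pseudocount of 16 was fitted, for 27141 probe sets called present on at least 5 arrays, with 64 control probe sets left out, in limma 3.58.1 (R 4.3.3) with 4 groups and series as a block. All 27141 tests, 2-sided, entered the Benjamini-Hochberg adjustment, and calls needed an adjusted p under 0.05. The labels say that a series shares litters and processing. Deviations from group means correlated at a median of 0.215 between arrays of one series and -0.07 between others (across genes, which are not independent replicates). The fit was tested on simulated data, where it recovered 97 of 100 probe sets changed by 1 on the log2 scale. It recovered 47 of 100 changed by 0.5, with 8 false calls among the unchanged ones of 27141 simulated probe sets. The simulated noise was independent between probe sets, so that count does not carry over to arrays where probe sets vary together. Members, lists and markers were chosen with earlier results of these data known. Named genes are every member, list genes past the threshold over both sexes, or else the 2 with the smallest p, and the 3 genes most correlated with each member; Smpd1, Vkorc1, Fam20c, Panx3, Abcc6 and the Slc34 genes were added after their values were seen. A list gene is read by its brightest tested probe set. Other settings, and repeats without each series or array, are in the closing section. Depth does not apply to arrays, and their number limits precision.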

Additional observations from a re-analysis of the deposited data

Results flagged for a closer look

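Of 84 groups of 5 arrays, 3 held an array whose gap to the nearest other spanned most of the group's range, and chance gives about 1 in 20 such groups. The normal female array of series 5 gave 934.3 for Smpd3 (1450748_at), against 313.6 to 404 on the other 4. Without that array the log2 fold change of this probe set was -0.98 (limma adjusted p = 0.0469). The Hyp male array of series 5 gave 226.9 for Slc20a1 (1438824_at), against 327.5 to 354 on the other 4. The normal male array of series 1 gave 19.3 for Ahsg, against 5.4 to 8.1 on the other 4, all without a present call.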

How the results depend on the processing

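Over both sexes 354 probe sets were called lower and 293 higher, 8 members lower and 0 higher, and of the list genes 4 lower and 1 higher. In the same order, skipping values within 1.5 times, no filter on present calls gave 88, 60, 5 members, and 1 and 0 list genes. Presence on all 20 arrays gave 598 and 628 and left several member probe sets untested, the intensity trend 634 and 635, and a pseudocount of 64 gave 444 higher. No replicate block gave 197, 120 and 4 members, and 3 list genes lower and 1 higher, with Ppa1 and Ggcx lost and Vkorc1 gained. The actin ratio covariate gave 1, 0, 0 members, and 0 and 0 list genes. Series 1 and 2 alone gave 0, 0, 0 members and 0 list genes, and series 3 to 5 alone 1, 0, 0 members and 0 list genes, with fewer arrays in each. Within males 27 probe sets and 1 member were called, against 129 and 2 with a pseudocount of 64, 4 and 0 with no filter, 332 and 3 for presence on all 20 arrays, 52 with quantile normalization, 2 and 0 with no replicate block, 97 and 2 with a random replicate block, 2 and 0 with the actin covariate, 429 and 4 with the intensity trend, 0 and 0 in series 1 and 2 and 1 and 0 in series 3 to 5. Within females 1 probe set and 0 members were called, against 0 with a pseudocount of 1, 6 with 64, 3 for presence on all 20 arrays, 2 with quantile normalization, 25 and 1 member with the trend and 0 in series 1 and 2. The interaction, with 1 probe set, gave 0 for presence on all 20 arrays and 0 in series 1 and 2. Female against male, with 36, gave 59 with a pseudocount of 64, 164 with the trend, 9 in series 1 and 2 and 23 in series 3 to 5.

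Leaving out a series or an array gave 12 to 768 lower and 8 to 575 higher over both sexes, 1 to 8 members lower and 0 to 1 higher, and 0 to 7 list genes lower and 0 to 1 higher. It gave 1 to 312 probe sets and 0 to 3 members in males, 1 to 22 and 0 to 1 in females, 1 to 2 and 0 to 0 for the interaction, and 26 to 153 and 0 to 0 for sex. The actin difference ran from 0.123 to 0.162 and the Gapdh difference, 0.06 ± 0.17 (SD, n = 10; exact sign-flip p = 0.258), from 0.0377 to 0.107. In series 1 and 2 alone they were 0.102 (exact p = 0.25, where 4 pairs cannot go below 0.125) and -0.00444.

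Signs turned only for probe sets that did not pass. Alpl was at 0.0451 in series 3 to 5 and between -0.238 and 0.0019 with an array or series left out, and Mgp at -0.0106 in series 1 and 2. Slc20a1 1446441_at was at 0.0585 in series 1 and 2, and between -0.27 and 0.12 with one left out. Xpr1 1426992_at was at 0.0732 and 1450130_at at 0.0399 with the actin covariate. Xpr1 1437958_at was at -0.12 in series 3 to 5, and between -0.0438 and 0.16 with one left out, and 1444168_at at -0.0225 in series 1 and 2, and between -0.13 and 0.22. The causes were not tested.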

Other observations

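Probe set 1438199_at is named Slc20a2 in the authors' deposited description and Smim19 in the array's gene table, so it was not counted as a member. It was called present on 20 of 20 arrays, with a signal of 442.5 to 802.8 in Hyp and 452.8 to 1053.9 in normal. Its log2 fold change was 0.02 ± 0.14 (SE; limma adjusted p = 0.954), with 6 of 10 pairs higher.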
